A study of Mus musculus with 8 samples.

Results

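The regions described here are 306 H2AK119ub domains that were called in both genotypes and were narrower in Eed cKO epidermis than in control epidermis. H2AK119ub is histone H2A with 1 ubiquitin on a lysine of its tail, and it was mapped by chromatin immunoprecipitation and sequencing. A domain was taken as a pair when a control peak overlapped exactly 1 Eed cKO peak by 1 bp or more and that Eed cKO peak overlapped no other control peak. A pair counted as narrowed when the Eed cKO width divided by the control width was 0.67 or less. There were 306 narrowed pairs among 1470 pairs, a share of 20.8% (95% Wilson interval 18.8 to 23.0%), and they held 6.62% of the 4621 control peaks. For comparison, 853 pairs with a ratio above 0.67 and below 1.5 are called stable in width, and 311 pairs with a ratio of 1.5 or more are called widened. The Eed cKO peak of a narrowed pair is called the remnant.

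The Eed cKO mice were labelled Eed-/- and the control mice were labelled only as control. Both were newborns at postnatal day 0. The cells were basal cells of the interfollicular epidermis of the back skin, sorted as positive for EpCAM and Sca1 and high for α6-integrin. The sources used here do not give the Cre driver or promoter behind the Eed deletion, the alleles that the control mice carried, or whether libraries pooled several animals. Each genotype had 2 H2AK119ub libraries and 1 deposited peak list that does not separate them. The lists give positions only, without height or score, so every width is a single value with no replicate error, and the read depth behind it is unknown. A narrower call can therefore come from less mark, fewer reads or a stricter call in 1 list, and these cannot be told apart. The pairs were chosen by their measured widths in both genotypes, so widths are given as a description, no test was made, and the Wilson intervals of shares cover counting error only.

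H2AK119ub is placed by Polycomb repressive complex 1, whose catalytic subunits are Ring1a and Ring1b. Eed is a core subunit of Polycomb repressive complex 2, which methylates lysine 27 of histone H3. Canonical forms of the first complex bind that methyl mark through Cbx proteins, and variant forms reach CpG-rich promoters without it. Polycomb domains in many tissues lie over developmental transcription factor genes of other lineages. The peak lists were set beside cell markers, with the caution that a peak of a repressive mark does not measure cell identity. The basal keratinocyte genes Krt5, Krt14, Trp63, Itga6, Itgb4 and Col17a1 had no peak in Eed cKO or in control. Krt15, also a basal keratin, and Krt1, a suprabasal keratin, had a peak in both. The other suprabasal genes, Krt10, Ivl and Lor, had none in either list. Of the Merkel cell genes, Atoh1, Sox2, Krt8 and Krt18 had a peak in both lists and Krt20 in neither. The melanocyte genes Sox10 and Kit and the fibroblast gene Pdgfra had no peak in Eed cKO and had one in control, while Twist2 had one in both and Mitf, Dct, Tyr, Col1a1 and Dpt had none. The leukocyte genes Ptprc, Cd3e and Cd207 had none in either list. Isl1, listed as a Merkel cell gene, was the only one of the listed markers at a narrowed pair.

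The 250 bases before the annotated start of 6 genes are printed as examples of starts left outside the remnant or kept inside it. This contrast applies only where the control peak held a start, which was so in 129 of the 306 narrowed pairs. All 6 starts lay inside the control peak. The first 3 starts lay outside the remnant and the last 3 lay inside it. Sequences are from RefSeq on GRCm38.p6, the assembly also called mm10, read 5′ to 3′ on the strand of the gene, with every CG dinucleotide in capitals.
Twist1: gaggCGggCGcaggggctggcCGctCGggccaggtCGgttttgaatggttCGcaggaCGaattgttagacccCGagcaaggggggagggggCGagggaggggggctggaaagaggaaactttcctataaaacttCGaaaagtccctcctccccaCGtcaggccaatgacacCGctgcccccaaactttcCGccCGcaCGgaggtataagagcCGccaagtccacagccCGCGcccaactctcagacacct
Isl1: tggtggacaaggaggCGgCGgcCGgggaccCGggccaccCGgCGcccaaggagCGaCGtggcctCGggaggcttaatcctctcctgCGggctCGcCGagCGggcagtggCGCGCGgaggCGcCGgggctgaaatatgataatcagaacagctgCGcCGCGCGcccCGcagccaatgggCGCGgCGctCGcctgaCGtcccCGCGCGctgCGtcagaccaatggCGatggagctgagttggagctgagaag
Dlx1: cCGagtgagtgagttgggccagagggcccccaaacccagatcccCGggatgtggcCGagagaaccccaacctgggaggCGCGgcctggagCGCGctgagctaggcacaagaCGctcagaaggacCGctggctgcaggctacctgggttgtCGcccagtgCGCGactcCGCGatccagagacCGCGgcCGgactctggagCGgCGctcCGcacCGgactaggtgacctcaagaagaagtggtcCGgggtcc
Slc26a4: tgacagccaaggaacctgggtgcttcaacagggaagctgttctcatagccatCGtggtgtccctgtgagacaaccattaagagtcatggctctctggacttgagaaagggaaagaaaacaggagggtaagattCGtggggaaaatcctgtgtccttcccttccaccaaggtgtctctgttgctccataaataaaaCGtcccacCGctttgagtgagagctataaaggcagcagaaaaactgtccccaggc
Dbx1: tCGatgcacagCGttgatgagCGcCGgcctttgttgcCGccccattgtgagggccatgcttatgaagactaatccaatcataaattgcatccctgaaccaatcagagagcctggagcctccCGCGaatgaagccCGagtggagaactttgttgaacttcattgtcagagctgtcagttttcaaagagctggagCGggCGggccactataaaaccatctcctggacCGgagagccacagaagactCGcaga
Sgpp2: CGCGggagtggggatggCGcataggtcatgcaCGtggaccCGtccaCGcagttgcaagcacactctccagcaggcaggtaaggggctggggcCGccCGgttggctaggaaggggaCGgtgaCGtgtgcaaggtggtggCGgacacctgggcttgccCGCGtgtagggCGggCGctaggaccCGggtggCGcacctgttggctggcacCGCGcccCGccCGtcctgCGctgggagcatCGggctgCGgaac
The stretches are, in the same order, chr12:33957421-33957670 on the + strand, chr13:116309689-116309938 on the - strand, chr2:71529195-71529444 on the + strand, chr12:31559985-31560234 on the - strand, chr7:49636836-49637085 on the - strand and chr1:78310096-78310345 on the + strand. The printed stretch held 18 CG at Twist1, 33 at Isl1 and 22 at Dlx1, the starts outside the remnant. It held 4 CG at Slc26a4, 12 at Dbx1 and 24 at Sgpp2, the starts inside the remnant. CG-rich starts thus occurred on both sides of the remnant's edge.

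The narrowed pairs had a median width of 4435.5 bp in Eed cKO (range 657 to 28654 bp), against 10129 bp in control (range 1193 to 55729 bp). The median ratio was 0.474, with quartiles at 0.360 and 0.579 and extremes at 0.0555 and 0.6685. A median of 5208.5 bp of the control peak lay outside the remnant, and the most was 44773 bp. Across all pairs the median ratio was 1.02, and the stable pairs had medians of 5941 bp in Eed cKO and 5756 bp in control. The narrowed control peaks covered 4104044 bp, of which remnants held 1683171 bp, or 41.0%. The stable pairs kept 86.7% of their control bases.

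**Figure D1:**
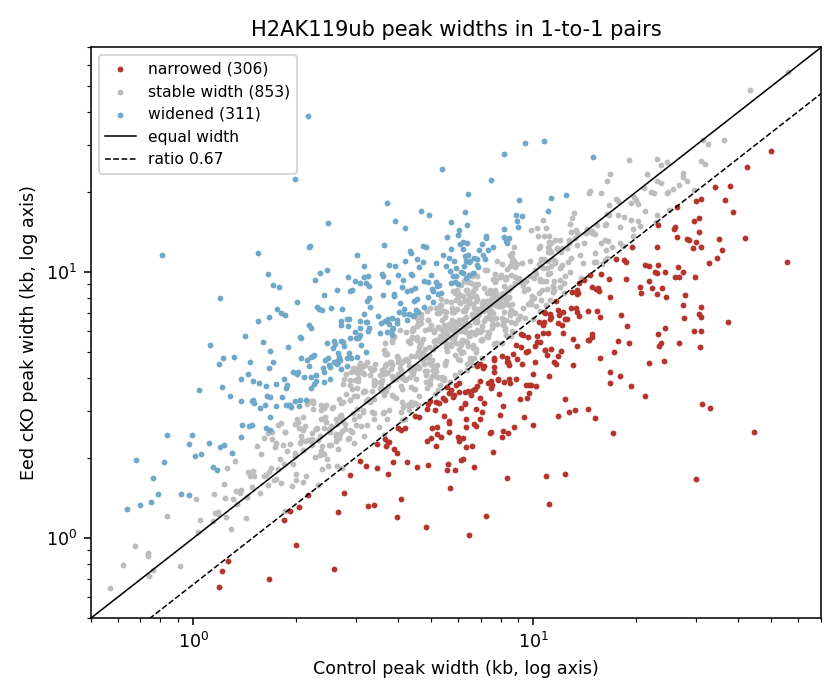
Width of each 1-to-1 pair in Eed cKO (vertical, kb, log scale) against its width in control (horizontal, kb, log scale), with lines at equal width and at the ratio limit of 0.67. The 306 narrowed pairs lie at or under the ratio of 0.67 and include 68 of the 100 pairs with a control width of 20 kb or more.

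The limit of 0.67 cuts a continuous range. The 3 pairs just inside it had ratios of 0.668042 (near Kcnj6), 0.668324 (in Ttbk1) and 0.668504 (at Arhgap26 and Spry4). The 3 just outside it had ratios of 0.670091 (Vwc2), 0.670333 (Dgat2) and 0.670716 (Ess2 and Gsc2). Wide control domains were narrowed more often than short ones. The share was 68% of the 100 pairs with a control width of 20 kb or more and 40.3% of the 216 pairs of 10 to 20 kb. It was 20.6% of the 524 pairs of 5 to 10 kb and 6.83% of the 630 pairs under 5 kb. The control width is the lower term of the ratio, so part of this order is built into the definition. In the same bands, from 20 kb down, 0%, 2.31%, 13.4% and 37.5% of pairs were widened.

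Most remnants were whole inside the old domain. In 229 of the 306 pairs (74.8%) both remnant ends lay inside the control peak, against 17.8% of the stable pairs. The width rule largely sets this contrast. Stable pairs had a median ratio of 1.02, and a peak wider than its control peak cannot lie inside it. The bases were lost from a single end in 168 pairs (54.9%), meaning that the other end receded by at most 10% of the control width or reached past it. These were 84 with the loss on the left and 84 with the loss on the right of the reference strand. The other 138 pairs (45.1%, 39.6 to 50.7%) lost bases at both ends. Where the loss was at a single end, the kept end lay a median of 195.5 bp from the control end, and 84 of the 168 kept ends were within 200 bp of it. In 77 of these pairs the remnant reached past the control end, by up to 2803 bp. Where both ends receded, the smaller loss was a median of 0.572 of the larger.

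Averaged over the 306 pairs, each control peak being divided into 10 equal segments, the remnant covered 65.3% and 66.8% of the segments on either side of the midpoint. It covered 21.2% of the leftmost segment and 20.7% of the rightmost. The stable pairs had 97.6% and 97.4% beside the midpoint, and 69.5% and 69.7% at the ends. With the control peak divided into 3 equal parts, the remnant's centre lay in the middle part in 151 pairs (49.3%), against 75.4% of the stable pairs. The middle of the domain was covered most often, with a spread of remnants to either side. A short interval placed anywhere inside a longer one tends to cover its middle more than its ends. The shape of this profile therefore follows in part from the width rule, and whether remnants are more central than that was not tested.

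**Figure D2:**
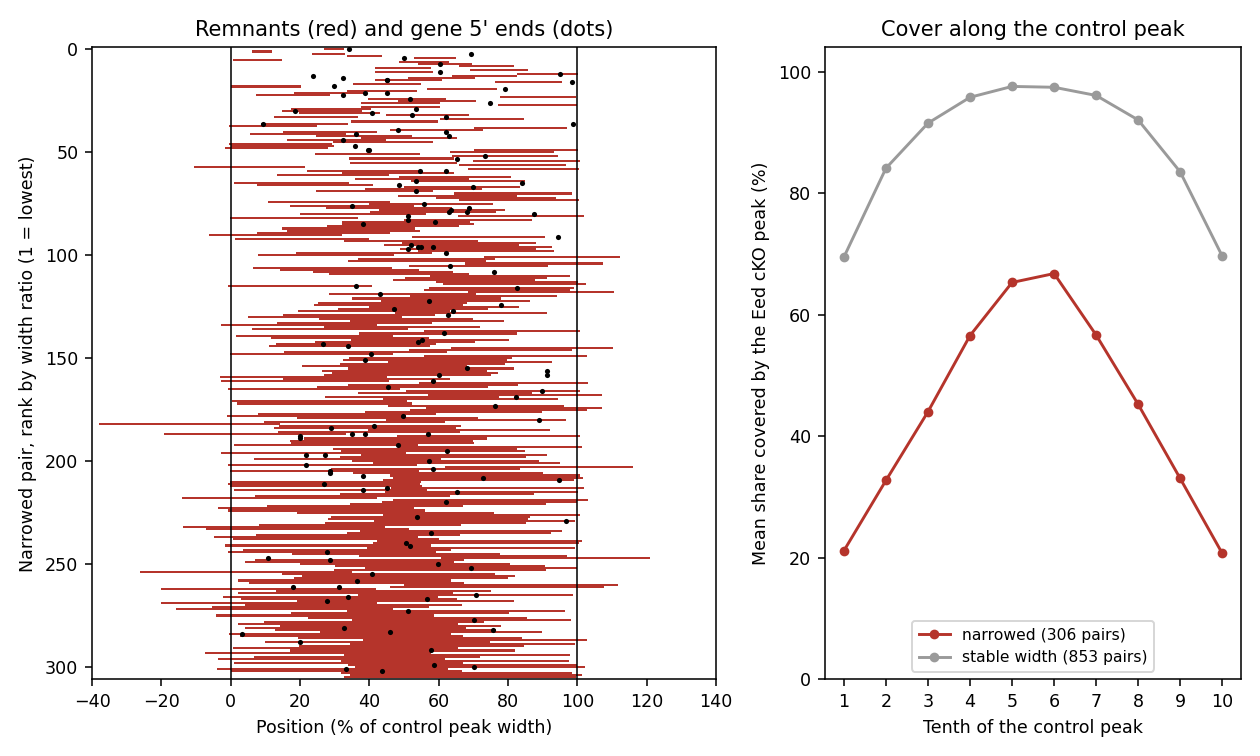
Left, the 306 remnants as red bars, 1 row per pair from the lowest width ratio at the top, on a horizontal axis where 0 and 100% are the ends of the control peak, with gene 5′ starts as dots. Right, mean share of each of 10 equal segments of the control peak that the Eed cKO peak covered (vertical, percent), which peaks at 66.8% beside the midpoint in narrowed pairs and at 97.6% in stable pairs.

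Gene starts were kept more often than bases were. The control peaks of narrowed pairs held 142 annotated 5′ starts of protein-coding genes, and 90 of them lay inside the remnant (63.4%, 55.2 to 70.9%), beside 41.0% of bases. Of 73 gene 3′ ends in the same control peaks, 36 lay inside the remnant (49.3%, 38.2 to 60.5%). The stable pairs kept 365 of 396 starts (92.2%) and 148 of 177 gene 3′ ends (83.6%), beside 86.7% of bases. Counted by pair, 86 of the 129 narrowed pairs with a start in the control peak (66.7%) kept at least 1 in the remnant. Starts of 1 domain share it, so these counts are not independent.

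The difference between starts and bases varied with the width of the control domain. At 20 kb or more, 28 of 45 starts were inside remnants (62.2%, 47.6 to 74.9%), beside 36.6% of bases. At 10 to 20 kb, 40 of 49 were (81.6%, 68.6 to 90.0%), beside 44.8% of bases. At 5 to 10 kb, 21 of 44 were (47.7%), beside 44.7% of bases, and under 5 kb 1 of 4 was, beside 51.1% of bases. Starts also tend to lie centrally: 59.2% of the starts were in the middle of the 3 equal parts of the control peak. There 58 of 84 starts (69.0%) were in the remnant, beside 63.0% of the bases. In the outer parts, 32 of 58 starts were kept (55.2%, 42.5 to 67.3%), beside 30.0% of the bases. The margin over bases was wider away from the centre, and whether it exceeds what position gives was not tested.

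**Figure D3:**
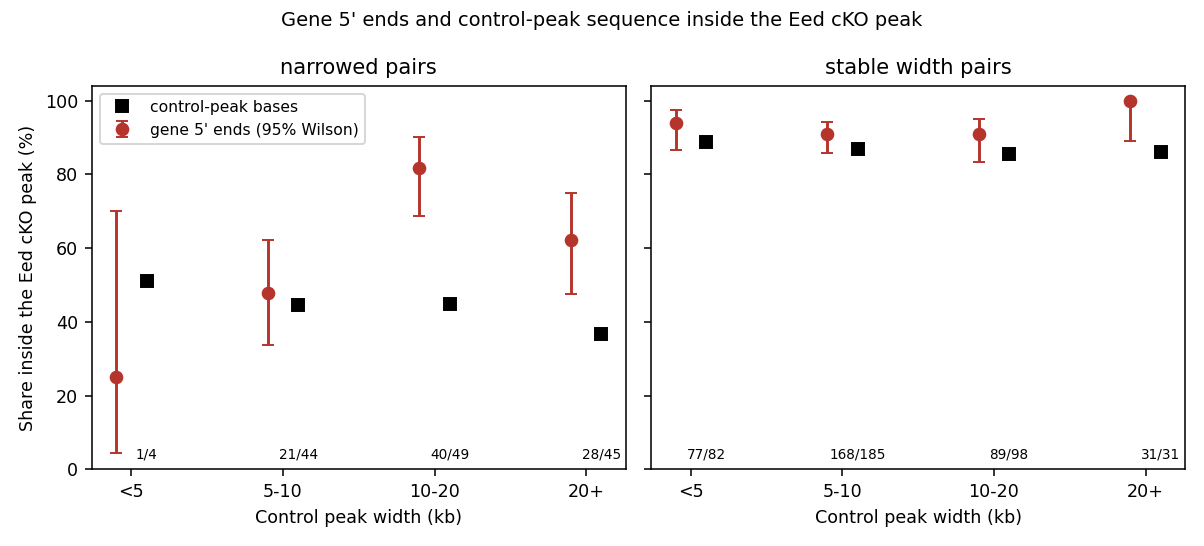
Share of 5′ starts inside the Eed cKO peak and share of control-peak bases inside it (vertical, percent), by control width (horizontal, kb), for narrowed and for stable pairs. Bars on the start shares are 95% Wilson intervals, and the gap between starts and bases in narrowed pairs is seen at 10 kb and over.

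In the 118 narrowed pairs whose control peak held exactly 1 start, the remnant covered it in 80 (67.8%), against 234 of 250 stable pairs (93.6%). In those 80, the domain reached a median of 3024 bp upstream of the start in Eed cKO and 5376 bp in control. Downstream it reached 3616.5 bp in Eed cKO and 7942 bp in control. More was lost downstream in 49 pairs and upstream in 31. In the other 38 pairs the start was bare, with the remnant downstream of it in 26 and upstream in 12. By gene structure, 12 remnants lay upstream of the start, 17 inside the gene, 8 across its 3′ end and 1, at Isl1, past it. Most bare starts were close to the remnant: the gap had a median of 824.5 bp and was within 1000 bp in 23 of the 38.

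The deepest narrowing at a gene end was at Twist1, a basic helix-loop-helix factor of mesenchyme. Its domain was 1.665 kb wide in Eed cKO and 29.995 kb in control, a ratio of 0.0555. The control peak was chr12:33947477-33977471, and the remnant, chr12:33955568-33957232, ended 439 bp upstream of the start whose CG-rich sequence is printed above. Isl1, a LIM homeobox factor of motor neurons and heart progenitors that Merkel cells also make, had 3.098 kb in Eed cKO and 32.931 kb in control. Its remnant, chr13:116294658-116297755, lay 11933 bp downstream of the start and 514 bp past the other end of the gene, so the whole gene was bare. Dlx1, a homeobox factor of forebrain interneurons, had 5.211 kb in Eed cKO and 30.86 kb in control, with 12830 bp lost on the left and 12819 bp on the right. Its remnant, chr2:71523658-71528868, ended 577 bp upstream of the start.

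Nr2f1, a nuclear receptor of neural development, differed in shape from Dlx1. It had 6.525 kb in Eed cKO (chr13:78191788-78198312) and 37.214 kb in control (chr13:78161081-78198294), with the 30707 bp lost all at one end. Slc26a4, which encodes the anion exchanger pendrin of the inner ear and thyroid, had 1.708 kb in Eed cKO (chr12:31559287-31560994) and 10.861 kb in control (chr12:31553430-31564290), and the remnant covered its start. The other pairs with the lowest ratios at gene ends were at 1190005I06Rik (1.341 kb in Eed cKO and 11.073 kb in control), Klf14, a Krüppel-like factor (2.494 and 17.098 kb in the same order), Pik3c2b, a lipid kinase gene (1.029 and 6.479 kb), and the neighbours Ap1g2 and Jph4 (1.211 and 7.242 kb). The lowest ratios thus included short domains as well as wide ones.

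**Figure D4:**
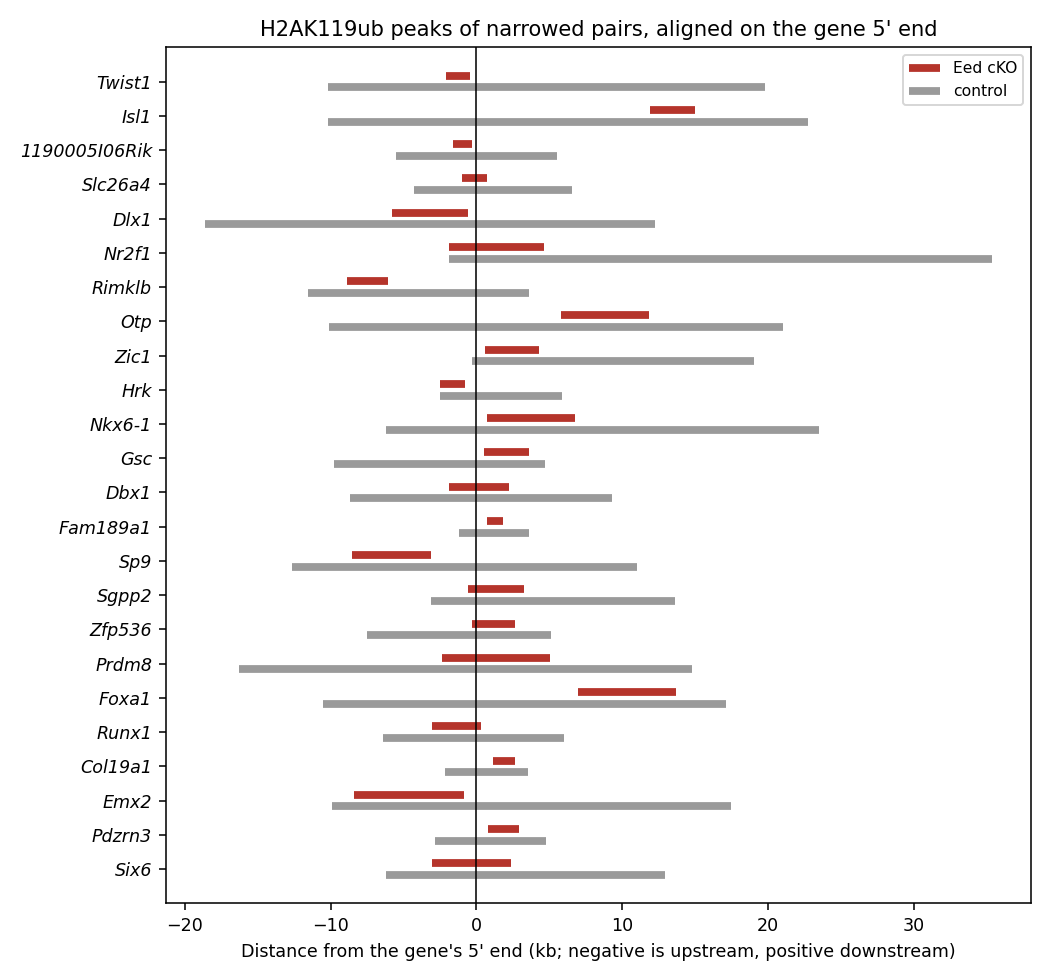
Eed cKO peak (red) and control peak (grey) of the narrowed pairs with the lowest ratios among those with a single gene start in the control peak, aligned on that start (horizontal, kb, upstream negative). The remnant lies over the start at Slc26a4, Nr2f1, Dbx1 and Sgpp2, just upstream of it at Twist1 and Dlx1, and far downstream at Isl1, Otp and Foxa1.

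The widest narrowed domains at genes were those of developmental factors, and several kb remained in Eed cKO. Barhl2, a homeobox factor of the nervous system, had 28.654 kb in Eed cKO and 49.967 kb in control. Tlx1, a homeobox factor needed for the spleen, had 24.955 kb in Eed cKO and 42.465 kb in control, and Ebf3, a helix-loop-helix factor of neurons, 21.077 kb in Eed cKO and 37.85 kb in control. Six3, a factor of the forebrain and eye, had 16.892 kb in Eed cKO and 38.579 kb in control, and its remnant lay 353 bp upstream of the start. Pax9, a factor of tooth and thymus, had 12.168 kb in Eed cKO and 35.915 kb in control. Wt1, a zinc finger factor of the kidney, had 10.785 kb in Eed cKO and 32.881 kb in control. Ratios in the 6 domains named here ran between 0.328 and 0.588. Nr2f1 and Isl1, described above for their low ratios, were also among the widest narrowed domains at genes. Their control peaks measured 37.214 and 32.931 kb, both wider than that of Wt1, and their ratios were 0.175 and 0.094. The widest domains at genes thus included deep as well as moderate narrowing.

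The control peaks of narrowed pairs lay at 202 protein-coding genes, which was 21.2% of the 953 genes at control peaks of any pair. A gene counted when the peak came within 2000 bp of its 5′ start, or of either end where no strand was given. At 172 of the 202 (85.1%) the remnant still came that near, and at 30 it did not. At stable pairs 593 of 611 genes kept the peak at their end. None of the 30 had another Eed cKO peak at its end (0 of 30). They included Isl1, Otp, Sp9, Foxa1, Pitx3, Tbx4, Tbx5, Trp73, Pcgf1, Pik3c2b, Ap1g2, Jph4, Rimklb, Lhb, Ntf5, Bicc1, Hap1, Plcb2, Cldn14, Gbf1, Ccdc88b, Slurp2, Rsrc1, Zfp651, Rassf3, Fscn1, Cd37 and Cdc42ep2. Among them Foxa1, a pioneer factor of endoderm, had 6.717 kb in Eed cKO and 27.67 kb in control, with the remnant 6992 bp from the start. Otp, a homeobox factor of the hypothalamus, had 5.99 kb in Eed cKO and 31.119 kb in control, and its remnant began 5843 bp downstream and ran across the 3′ end of the gene. Tbx4 and Tbx5, T-box factors of the limbs, had 9.909 and 8.689 kb in Eed cKO, against 22.996 and 15.52 kb in control. Trp73 encodes the p53 relative p73, and its peak measured 6.49 kb in Eed cKO and 10.77 kb in control.

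Among the gene groups, homeobox genes outside the Hox clusters had 34 of 64 members at pairs in the narrowed class (53.1%). Over all 953 genes at pairs the share was 21.2%. The median ratio over the 64 was 0.652. Their control domains had a median width of 20.4 kb, against 6.81 kb over all 953 genes, and 68% of all pairs of 20 kb or more were narrowed. Stable pairs held 28 members and widened pairs 4, some members lying at more than 1 pair. Beside Isl1, Dlx1 and Otp, Nkx6-1, a factor of ventral spinal cord and beta cells, had 5.99 kb in Eed cKO and 29.722 kb in control, with the remnant 753 bp downstream of the start. Of Pax, Sox, Fox, T-box, Gata and Zic factors at pairs, 16 of 23 were narrowed (69.6%), beside 21.2% over all genes. The 23 had a median ratio of 0.501 and a median control width of 23.1 kb. Zic1, a zinc finger factor of the hindbrain, had 3.735 kb in Eed cKO and 19.354 kb in control, and its remnant lay inside the gene, 576 bp past the start. Once peaks within 1000 bp were merged, Zic1 no longer gave a 1-to-1 pair.

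Of basic helix-loop-helix lineage factors at pairs, 5 of 16 were narrowed, namely Twist1, Tal1, Hand1, Neurog1 and Olig3. That share was 31.25%, beside 21.2% over all genes at pairs. Control domains of the 16 had a median width of 9.37 kb. Tal1, a factor of blood formation, had 4.542 kb in Eed cKO and 21.836 kb in control. Hand1, a factor of heart and placenta, had 5.001 kb in Eed cKO and 17.246 kb in control. The factors of neuronal and oligodendrocyte lineages, Neurog1 and Olig3, had 8.278 and 9.583 kb in Eed cKO, against 23.099 and 26.777 kb in control. Of the 39 Hox genes only 2 lay at pairs, and both of these were widened. On chromosome 15, 2 narrowed control peaks outside genes had Hoxc4 and Smug1 as their nearest coding genes.

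Of WNT, FGF, BMP, hedgehog and Notch pathway genes, 3 of 18 were narrowed: the ligands Gdf6 (8.33 kb in Eed cKO and 13.534 kb in control) and Gdf10, and Sfrp1, a secreted WNT inhibitor. Of channel and neurotransmitter receptor genes, 2 of 26 were narrowed, the sodium channel subunit Scn4b (5.302 kb in Eed cKO and 8.904 kb in control) and the somatostatin receptor Sstr2. Of axon guidance and cadherin genes, 5 of 17 were narrowed, including the secreted cue Ntn1 (14.813 kb in Eed cKO and 26.109 kb in control), the receptor Nrp2, Sema5b, Pcdh10 and Pcdh17. Of matrix genes, 1 of 9 was narrowed, the collagen gene Col19a1. Beside 21.2% over all genes at pairs, the shares were 16.7% for the pathway genes, 7.69% for channels and receptors, 11.1% for matrix genes and, above it, 29.4% for axon guidance and cadherin genes.

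Among skin genes, 5 of 10 hair follicle and appendage genes at pairs were narrowed, beside 21.2% over all genes, while 3 lay at stable and 3 at widened pairs, with overlap where a gene has more than 1 pair, and the median ratio over the 10 was 0.994. With a ratio limit of 0.5 the narrowed members were 2. The 5 were Runx1, a hair follicle stem cell factor (3.342 kb in Eed cKO and 12.416 kb in control), Sox9, a factor of the outer root sheath and its stem cells (2.65 kb in Eed cKO and 6.762 kb in control), Nfatc1, a bulge factor (7.354 kb in Eed cKO and 12.919 kb in control), Lgr6, a receptor of follicle progenitors (3.901 kb in Eed cKO and 7.484 kb in control), and Cux1. All 5 kept the remnant at the gene end, and Sox9 also lay at another pair that was not narrowed. Of 7 Merkel cell genes at pairs, Isl1 and Gfi1 were narrowed (28.6%, beside 21.2% over all genes). Gfi1, a zinc finger repressor, kept 10.009 kb in Eed cKO, against 27.521 kb in control. Neither of the 2 basal and suprabasal keratinocyte genes at pairs was narrowed, and both were widened. The 1 cell cycle gene at a pair was not narrowed. Of 3 mesenchymal, melanocyte and leukocyte genes, Twist1 was, and of 6 Polycomb genes, Pcgf1, a subunit of a variant PRC1, was. These shares were 33.3% and 16.7%, beside 21.2% over all genes.

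The 4 transcription factor groups joined, 269 genes in all, had 105 genes at pairs and 55 of these narrowed (52.4%), of which 48 kept the remnant at the gene end. Control domains of the 105 had a median width of 19.97 kb, against 6.81 kb over all 953 genes. Within bands of control width the difference was smaller. At 20 kb or more, 35 of 53 pairs at a transcription factor gene were narrowed (66.0%, 52.6 to 77.3%), beside 33 of 47 other pairs (70.2%, 56.0 to 81.3%). Median ratios there were 0.462 and 0.482 in the same order. At 10 to 20 kb, the counts were 15 of 28 (53.6%, 35.8 to 70.5%) beside 72 of 188 (38.3%, 31.6 to 45.4%). At 5 to 10 kb they were 5 of 19 (26.3%) beside 103 of 505 (20.4%), and under 5 kb 0 of 6 beside 43 of 624 (6.89%). The intervals overlapped in each band, and in the widest band the order was turned round.

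**Figure D5:**
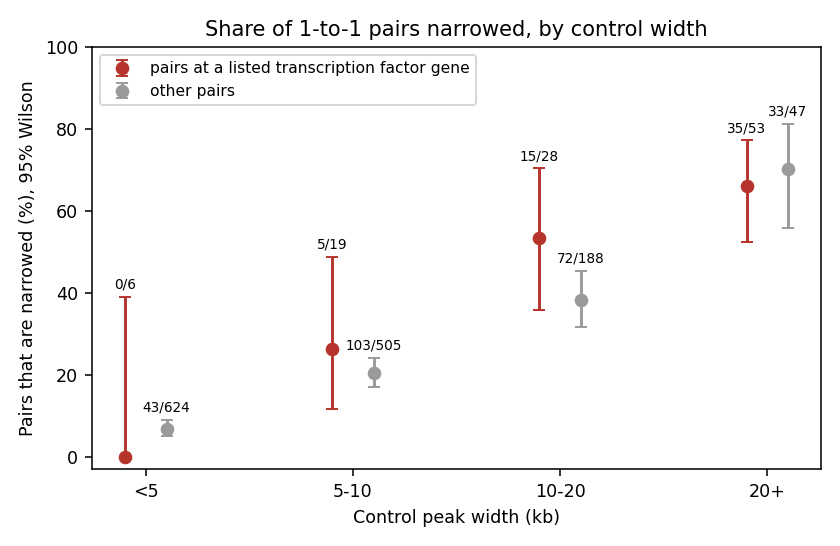
Share of pairs narrowed in Eed cKO (vertical, percent) by control width (horizontal, kb), for pairs at a listed transcription factor gene and for other pairs. Bars are 95% Wilson intervals, and both sets pass 60% at 20 kb or more.

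By location, 189 of the 306 narrowed control peaks lay at a gene end (61.8%, 56.2 to 67.03%), 47 inside a gene span (15.4%) and 70 outside (22.9%). The stable pairs had 60.8%, 17.6% and 21.6% in the same order, and the widened pairs 43.4%, 25.4% and 31.2%. The narrowed control peaks were wider, and within each band of control width they lay at a gene end less often than the stable ones. At 20 kb or more, 75% of narrowed and 90.6% of stable control peaks did (Wilson intervals 63.6 to 83.8% and 75.8 to 96.8%). At 10 to 20 kb the shares were 74.7% of narrowed and 77.4% of stable, and at 5 to 10 kb 58.3% and 66.5%. Under 5 kb they were 23.3% of narrowed (13.2 to 37.7%) and 46.7% of stable (41.6 to 52.0%), and that was the only band in which the intervals did not overlap. With 5′ starts of known strand alone, the narrowed share at gene ends was 46.7%. Of the 189, the remnant still lay at a gene end in 168 (88.9%), against 513 of 519 stable pairs (98.8%). A long non-coding RNA gene overlapped the control peak in 105 narrowed pairs (34.3%), against 25.2% of stable and 15.4% of widened pairs. Median control widths fell in the same order, at 10129, 5756 and 3024 bp. A wider peak can overlap more genes, and this share was not compared within bands of width.

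The widest narrowed domain lay inside Skap1, an adaptor gene of T cells, at chr11:96583088-96638816. It was 10.956 kb wide in Eed cKO and 55.729 kb in control, and another domain in the same gene was 3.417 kb wide in Eed cKO and 21.246 kb in control. On chromosome 15, a domain whose nearest coding gene was Calcoco1, 37.1 kb away, had 2.5 kb in Eed cKO and 44.386 kb in control, a ratio of 0.0563. A pair of control domains near Nr2f2, a nuclear receptor of veins and interneurons, lay 1024 bp apart. They had 6.966 and 6.859 kb in Eed cKO, against 30.583 and 13.617 kb in control, and both remnants sat at the facing ends, 1092 bp from each other. A microRNA gene lay in the control peak of 2 narrowed pairs. At one of them, near Kif13b, Mir124a-1, a microRNA of neurons, and Mir3078 lay in a remnant of 5.071 kb in Eed cKO, against 12.033 kb in control. The other held Mir3470a beside Lbx2 and Pcgf1 and had 3.034 kb in Eed cKO and 13.229 kb in control.

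Some narrowed domains were neighbours. There were 22 neighbourhoods in which 2 or more narrowed control peaks lay under 100 kb apart, and they held 46 pairs (15.0%), among them those at Gsx1 and Pdx1 on chromosome 5 and at Lbx2, Tlx2 and Dqx1 on chromosome 6. By the same count, 258 of the 853 stable pairs (30.2%) lay in 105 neighbourhoods of stable pairs, which are more numerous. Another pair lay within 100 kb of 106 narrowed pairs, and the nearest was itself narrowed in 37 (34.9%). It lay within 100 kb of 346 stable pairs, and the nearest was narrowed in 45 (13.0%), beside 20.8% of all pairs. Narrowed control peaks were wider than stable ones, and these shares were not compared within bands of width. Another control peak lay within 10 kb of the control peak in 35.6% of narrowed pairs, against 27.1% of stable pairs. Another Eed cKO peak lay within 10 kb of the Eed cKO peak in 11.4% of narrowed pairs, against 16.8% of stable pairs. Of 197 narrowed pairs with no other control peak within 10 kb, 51.8% lost bases at both ends. By chromosome, the narrowed share was highest on the X (4 of 8 pairs), 18 (15 of 31) and 14 (16 of 40), and lowest on 4 (13.0%) and 11 (14.4%).

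Starts outside the remnants were CG-dense at least as often as starts inside them. In windows of 250 bases before and 50 after the start, the observed over expected CG ratio had a median of 0.739 at the 90 starts inside remnants and 0.813 at the 52 starts outside them. Windows with a GC content of at least 50% and a ratio of at least 0.6 made up 57 of the 90 inside (63.3%, 53.0 to 72.6%) and 41 of the 52 outside (78.8%, 66.0 to 87.8%). In stable pairs the order was the reverse, with 67.1% of the 365 starts inside the Eed cKO peak (62.1 to 71.7%) and 51.6% of the 31 outside it (34.8 to 68.0%). The intervals of inside and outside overlapped in both kinds of pair. Over all 21045 RefSeq promoter windows the median ratio was 0.574 and the share 45.6%. Narrowed domains therefore held CG-rich starts whether the remnant covered them or not. The starts printed above include both kinds: Isl1, outside, had a ratio of 1.05, and Sgpp2, which encodes a sphingosine-1-phosphate phosphatase, had 0.906 and lay inside. Dbx1, a homeobox factor of the spinal cord, had 0.687 and kept its start in a remnant of 4.07 kb in Eed cKO, against 18.0 kb in control.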

How the data were processed

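H2AK119ub libraries were made from sorted epidermal progenitors, 2 of Eed cKO and 2 of control, and the authors deposited 1 peak list per genotype. The deposited values are peak positions in bp of mm10, with no score, per the file headers. Per the submitters' processing notes, the tools included Bowtie2 2.3.3.1 and SAMtools 1.9. How peaks were called, with which threshold and inputs, and how libraries were joined is not given in the sources used here. Starts in the lists were read as counted from 0, and positions are printed from 1. Input libraries and Ring1a/b libraries were not analysed here.

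Pairs, widths and overlaps were computed with Python 3.11.15, numpy 2.4.6, pandas 2.3.3 and scipy 1.17.1. Genes were 21631 protein-coding RefSeq genes of GRCm38.p6. Strand was taken from the RefSeq promoter table for 17274 of them, with 21045 starts. For the other 4357 both ends were used. A gene end was marked when a peak came within 2000 bp of it. Exons and untranslated regions were not told apart, since exon positions and whole-genome sequence were not used here.

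The members, the 14 gene lists (775 genes, 774 of them in the gene table) and the comparisons were chosen with earlier results of these data known. Named pairs were the 10 with the lowest ratio, the 10 with the most bases lost and the 10 with the widest control peak at gene ends, listed genes at narrowed pairs, and 3 pairs on each side of the limit. A few pairs that meet these criteria are not reported here. Pairs away from genes, bare genes, microRNA genes, neighbourhoods and the genes of printed promoters were chosen after their values were seen. No test was made, since there is 1 list per genotype. Alternatives were other ratio limits, overlaps, windows, merging of peaks and stricter lists. The pairing was tested on simulated data.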

Additional observations from a re-analysis of the deposited data

How the results depend on the processing

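With a ratio limit of 0.5 the narrowed pairs numbered 166, with a median ratio of 0.369 and losses at both ends in 61.4%. Their remnants held 54.2% of gene starts, beside 31.8% of bases. With a limit of 0.8 the median ratio was 0.562 and 33.6% lost bases at both ends. With the stricter lists of wider peaks the median ratio was 0.508 and 71.4% of pairs lay at gene ends. Remnants in those lists held 74.4% of gene starts, beside 42.9% of bases. Merging peaks within 3000 bp left 53 of 271 genes bare at their end, against 30 of 202 without merging. With windows of 1000 bp and 5000 bp around the peaks, 128 of 159 starts (80.5%) and 164 of 186 (88.2%) were counted at the remnant. Without a window the count was 90 of 142. A window adds starts near a remnant to those inside it, so a higher share follows in part from the setting. The share of bases was not widened to match, so these settings cannot show whether starts were kept more often than bases. Allowing the kept end to move by 5% or 20% of the control width gave losses at both ends in 58.2% and 19.9%, so that split depends on the tolerance. In alternatives chosen after seeing the data, 5′ starts alone gave 46.7% of pairs at gene ends, and control peaks with no neighbour within 10000 bp left 197 pairs, 51.8% with losses at both ends. No paired analysis was possible because each list pools its libraries, and for that reason no replicate could be left out. All 81 named pairs stayed at or under 0.67 with an overlap of 50% of the narrower peak. A remnant wholly inside its control peak always meets that overlap, so this setting could not change such pairs. With merging within 1000 bp 80 stayed at or under 0.67 and Zic1 gave no pair. With merging within 3000 bp 77 stayed there, 3 gave no pair (Zic1, Cux1 and Sox9) and Irx3 had 0.960. Depth is unknown, so whether a lost flank held mark under the call threshold was not tested.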
